A study of Mus musculus with 16 samples.

Results

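The mouse Hox genes encode homeodomain transcription factors and lie in 4 clusters, A to D, each on a chromosome of its own. The 38 Hox genes described here were chosen by name, as members of the family whose gene identifiers matched a symbol, out of 57132 genes counted in each library. They comprise 10 genes of cluster A on chromosome 6, 10 of cluster B on chromosome 11, 9 of cluster C on chromosome 15 and 9 of cluster D on chromosome 2. The family was singled out with its levels in the 2 batches of these data already known, so the comparison of batches is given as a description, with no test of the Hox genes.

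The cells were mouse neural stem cells, the dividing progenitors that give rise to neurons and glia, kept in the culture condition that the labels call GF and describe as self-renewing. RNA-seq covered 4 groups of 3 libraries: gRNA and control cells of batch 2, and gRNA and control cells of batch 1. The gRNA cells received the treatment named TAPIR and the control cells did not. The labels give neither a target of the guide RNA nor the strain, age, brain region or line of the cells, and they do not say what separates the batches. They also do not say whether replicates are separate cultures, so each p-value reflects only how these libraries scatter, which may be technical.

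Hox genes give cells a position along the head-to-tail axis. Within a cluster, genes at the 3′ end (low numbers) are active in more anterior tissue, such as the hindbrain, and genes at the 5′ end (high numbers) in more posterior tissue, such as the trunk and tail, an order known as collinearity. Genes with the same number in different clusters are paralogs. In the developing nervous system Hox genes are used in the hindbrain and spinal cord, whereas the forebrain and midbrain normally lack them, and Polycomb and Trithorax proteins hold the clusters silent or active through cell divisions.

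Gene counts summed to 8414028 to 19454390 per library (median 14918917), and the batch totals were close, at 88859697 counts in batch 2 and 87559030 in batch 1. A floor of 3 counts over the 6 libraries of a batch corresponds to 0.0328 CPM in batch 2 and 0.0349 CPM in batch 1. Log2 levels correlated at 0.980 to 0.997 between libraries of 1 batch and at 0.894 to 0.909 between batches. In batch 2, control replicate 3 held 24.0% and gRNA replicate 3 held 12.4% of the variance within batches, and each other library held 4.11% to 9.43%, so the comparison of treatments is given below also without these 2 libraries. Of the 13 neural stem and progenitor markers, 12 averaged at least 1 CPM in batch 2 and all 13 in batch 1.

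Cluster A was detected in batch 2 and at most stray reads were found in batch 1. The 38 Hox genes together took 16071 counts in the 6 libraries of batch 2 and 29 counts in the 6 libraries of batch 1. Cluster A held 16000 counts in batch 2 and 14 in batch 1, cluster B held 3 and 4, cluster C held 8 and 5, and cluster D held 60 and 6. Cluster A thus made up 99.6% of the Hox counts of batch 2. The summed Hox level was 176 ± 5.55 CPM in batch 2 and 0.421 ± 0.633 CPM in batch 1 (SD, n = 6 each), and each batch 2 library, at 168.6 to 184.3 CPM, lay far above the highest batch 1 library, at 1.70 CPM. These CPM values are read counts scaled by the TMM-adjusted library size and not by gene length, so levels are compared below between libraries and not between genes.

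**Figure D1:**
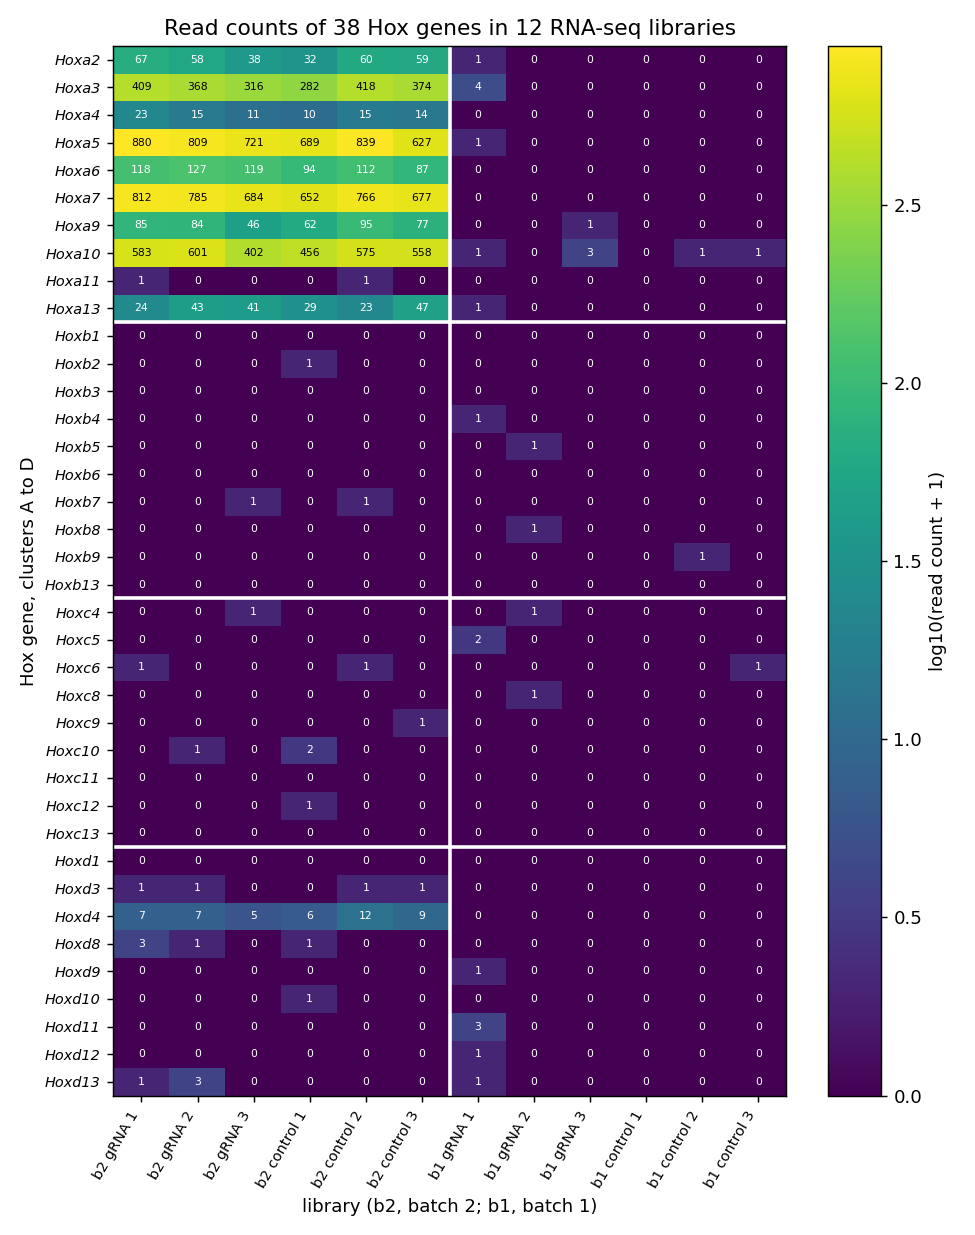
Read counts of each of the 38 Hox genes (down the page, grouped by cluster) in each of the 12 RNA-seq libraries (across, batch 2 to the left), with the count printed in each cell and its log10(count + 1) as colour. Cluster A is coloured in the 6 batch 2 libraries except at Hoxa11, Hoxd4 is faint there at 5 to 12 counts, and no Hox gene passes 4 counts in any batch 1 library.

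Of the 38 Hox genes, 8 were at 1 CPM or more in every library of batch 2 and 0 were in batch 1. The 8 were Hoxa2, Hoxa3, Hoxa5, Hoxa6, Hoxa7, Hoxa9, Hoxa10 and Hoxa13. Hoxa4 lay just under this level, at 0.751 to 1.29 CPM. With Hoxa4, 9 genes passed the filter on low counts that preceded the tests, all of them through batch 2, and 29 did not. In all 9 of these genes every batch 2 library lay above every batch 1 library, as did 17.2% of all 18279 genes tested, and 28.4% of all genes passed the edgeR test as higher in batch 2 and 33.4% as lower. Since the filter let these 9 through because of batch 2, nothing is read from their count.

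The 3′ genes of cluster A, linked to the hindbrain and pharyngeal arches, were detected in each of the 6 batch 2 libraries. Hoxa2, which sets the identity of the second pharyngeal arch and patterns the anterior hindbrain, was at 3.75, 3.52 and 2.76 CPM in gRNA libraries and 2.40, 3.70 and 4.30 CPM in control libraries of batch 2, and batch 1 held 1 count. Hoxa3, needed for the thymus, parathyroid and other derivatives of the third pharyngeal arch, was at 22.9, 22.3 and 22.9 CPM in gRNA libraries and 21.2, 25.8 and 27.2 CPM in control libraries of batch 2, with 4 counts in batch 1, all in gRNA replicate 1. For both genes the gRNA and control values overlapped. Pooled over libraries, Hoxa2 was 295-fold higher in batch 2 than in batch 1, with a 95% counting interval of 52.5 to 11685, and Hoxa3 was 509-fold higher, with an interval of 198 to 1869. These intervals, from the exact binomial, cover counting error only.

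The central genes of the cluster, which act in the cervical and thoracic trunk, held the gene with most counts and the one with fewest among those that passed the filter. Hoxa4, which patterns cervical vertebrae, was at 1.29, 0.909 and 0.798 CPM in gRNA libraries and 0.751, 0.926 and 1.02 CPM in control libraries of batch 2. No batch 1 library had a count of Hoxa4, so it was at least 27.6-fold higher in batch 2, taking 3 counts over the 6 batch 1 libraries as the floor. Hoxa5, a regulator of cervicothoracic patterning and of lung development, was at 49.2, 49.1 and 52.3 CPM in gRNA libraries and 51.8, 51.8 and 45.7 CPM in control libraries. The 6 values of Hoxa5 lay within a narrow range, with a coefficient of variation of 5.04%, and batch 1 held 1 count against 4565 in batch 2.

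Hoxa6 was at 6.60, 7.70 and 8.63 CPM in gRNA libraries and 7.06, 6.91 and 6.34 CPM in control libraries of batch 2, and was at 0 counts in batch 1. Hoxa7, like Hoxa6 a gene of the thoracic region, was at 45.4, 47.6 and 49.6 CPM in gRNA libraries and 49.0, 47.3 and 49.3 CPM in control libraries, and also at 0 counts in batch 1. Hoxa7 varied least of the 9 genes between batch 2 libraries, with a coefficient of variation of 3.31%. On the floor of 3 counts, Hoxa6 was at least 206-fold and Hoxa7 at least 1370-fold higher in batch 2, and the ratio for Hoxa5 was 4288 with a counting interval of 769 to 169388.

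The 5′ genes were detected up to the end of the cluster, with 1 gap. Hoxa9, known from blood progenitors and as a driver of leukaemia, was at 4.75, 5.09 and 3.34 CPM in gRNA libraries and 4.66, 5.86 and 5.61 CPM in control libraries of batch 2. Hoxa10, which patterns the lumbar region and the uterus, was at 32.6, 36.4 and 29.2 CPM in gRNA libraries and 34.3, 35.5 and 40.6 CPM in control libraries. Hoxa13, needed for digits and the genital tract, was at 1.34, 2.61 and 2.97 CPM in gRNA libraries and 2.18, 1.42 and 3.42 CPM in control libraries. Hoxa13 varied most of the 9, with a coefficient of variation of 36.1%, and its counts were low, at 23 to 47 per library. Batch 1 held 1 count of Hoxa9, 6 of Hoxa10 and 1 of Hoxa13, which gave ratios of 422 (counting interval 75.3 to 16694), 497 (228 to 1355) and 194 (34.5 to 7716).

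The ratios rest on few batch 1 reads, and 1 library held most of them. Of the 29 Hox counts of batch 1, gRNA replicate 1 held 17, in all 4 clusters, and the other libraries 0 to 4 each. Without that library batch 1 was at 0 for Hoxa2, Hoxa3, Hoxa5 and Hoxa13, and the batch 2 levels were at least 86.8-fold, 599-fold, 1262-fold and 57.2-fold higher. Without gRNA replicate 3, Hoxa9 was at 0 in batch 1, which gave at least 113-fold, and the ratio for Hoxa10 was 800.

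Hoxa11, which lies between Hoxa10 and Hoxa13 and is needed for the forearm and the uterus, was the only cluster A gene at the floor in batch 2. It had 1 count in gRNA replicate 1 and 1 in control replicate 2 of batch 2 and 0 in all batch 1 libraries. Its neighbours on either side were detected in every batch 2 library. The sequence around the annotated starts of these 3 genes and of Hoxa9 is shown because the gap falls there, from 250 bases before the start to 50 after it, on the minus strand of GRCm38.p6 (RefSeq), with CpG dinucleotides in capitals. Hoxa10 has 2 annotated starts.
Hoxa9 chr6:52227321-52227620: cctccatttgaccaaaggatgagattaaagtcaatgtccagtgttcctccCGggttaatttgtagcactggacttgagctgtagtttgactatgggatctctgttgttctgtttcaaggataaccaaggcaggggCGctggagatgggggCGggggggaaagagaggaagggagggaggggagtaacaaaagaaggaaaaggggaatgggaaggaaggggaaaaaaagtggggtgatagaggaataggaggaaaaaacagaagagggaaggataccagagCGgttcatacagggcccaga
Hoxa10 chr6:52234890-52235189: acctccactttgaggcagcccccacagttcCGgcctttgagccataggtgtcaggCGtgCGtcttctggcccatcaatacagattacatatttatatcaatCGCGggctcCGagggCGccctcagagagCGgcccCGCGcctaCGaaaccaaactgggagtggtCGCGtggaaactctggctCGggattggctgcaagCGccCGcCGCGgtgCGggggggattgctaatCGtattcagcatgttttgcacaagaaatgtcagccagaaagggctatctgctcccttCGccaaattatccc
Hoxa10 chr6:52240805-52241104: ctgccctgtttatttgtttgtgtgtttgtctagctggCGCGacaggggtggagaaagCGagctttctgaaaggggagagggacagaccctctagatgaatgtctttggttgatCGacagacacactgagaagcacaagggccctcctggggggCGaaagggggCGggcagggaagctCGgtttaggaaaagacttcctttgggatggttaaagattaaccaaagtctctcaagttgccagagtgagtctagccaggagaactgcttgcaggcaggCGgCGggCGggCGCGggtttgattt
Hoxa11 chr6:52245761-52246060: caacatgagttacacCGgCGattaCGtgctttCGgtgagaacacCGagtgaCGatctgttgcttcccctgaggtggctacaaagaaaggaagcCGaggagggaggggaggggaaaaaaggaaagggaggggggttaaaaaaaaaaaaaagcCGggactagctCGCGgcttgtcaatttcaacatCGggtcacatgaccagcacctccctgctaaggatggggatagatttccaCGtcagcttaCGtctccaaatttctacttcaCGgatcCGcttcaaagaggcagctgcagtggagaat
Hoxa13 chr6:52260831-52261130: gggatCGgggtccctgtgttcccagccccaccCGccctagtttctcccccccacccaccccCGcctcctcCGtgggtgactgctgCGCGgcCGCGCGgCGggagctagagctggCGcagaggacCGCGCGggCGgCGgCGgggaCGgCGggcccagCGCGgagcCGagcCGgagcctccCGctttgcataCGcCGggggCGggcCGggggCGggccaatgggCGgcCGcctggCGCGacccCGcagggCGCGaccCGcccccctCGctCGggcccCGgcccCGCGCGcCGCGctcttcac
These windows held 4 CpGs at Hoxa9, 21 and 12 at the starts of Hoxa10, 15 at Hoxa11 and 45 at Hoxa13. The undetected gene therefore had more CpGs in its window than the detected Hoxa9 and fewer than the detected Hoxa13. Of the 38 Hox genes, 22 had such a window, with 24 windows in all, and their median was 14.5 CpGs, against 7 over all 32851 windows of the table.

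Letters known to be read by regulators of Hox genes were searched on both strands of the same windows. The caudal factor motif TTTATG was in 5 of 24 Hox windows and in 11.85% of all windows, and the Pbx-Hox motif TGATNNAT was in 4 of 24 and in 8.846% of all. Retinoic acid response elements, taken as direct repeats of AGGTCA with a spacer of 5 or 2 bases, were each in 0 of 24 Hox windows and in 0.009% of all. None of the windows printed above held any of these motifs, and nothing about the factors follows from that.

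Clusters B and C were at the level of stray reads in both batches. Their 19 genes had 11 counts in batch 2 and 9 in batch 1, and no gene of either cluster had more than 2 counts in a library. The 3′ genes of cluster B, such as Hoxb1, a hindbrain gene, and Hoxb3, were at 0 counts in all 12 libraries, as were Hoxb6, Hoxb13, Hoxc11, Hoxc13 and Hoxd1. The paralogs of the detected cluster A genes were thus not detected in clusters B and C, and 0 counts in a batch allows a level of up to 0.0328 CPM in batch 2 and 0.0349 CPM in batch 1.

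Hoxd4, a gene of the posterior hindbrain and neck, was the only gene outside cluster A above 3 counts in any library. It had 7, 7 and 5 counts in gRNA libraries and 6, 12 and 9 counts in control libraries of batch 2, and 0 counts in batch 1. The level was 0.393 ± 0.0310 CPM in gRNA and 0.616 ± 0.149 CPM in control libraries of batch 2 (SD, n = 3 each), and the gene was at least 14.4-fold higher in batch 2. In CPM, all 3 gRNA values lay below all 3 control values, but they rest on 5 to 12 counts per library. The share of all genes that separate this way was not counted, so nothing is read from it. Hoxd4 did not pass the filter on low counts and was left out of the main tests. Without that filter, 22 Hox genes were tested in batch 2, and 0 had an unadjusted edgeR p under 0.05, beside 834 of all 32352 genes. With so low a share over all genes, this 0 says nothing about Hoxd4 or the other Hox genes. The other 8 genes of cluster D together had 14 counts in batch 2 and 6 in batch 1, with at most 3 in a library. Hoxd3, whose annotated span covers Hoxd4, had 1 count each in 4 batch 2 libraries, and its antisense transcript Hoxd3os1 had 20 counts in batch 2 and 0 in batch 1.

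The long noncoding genes between the HoxA genes followed the coding genes beside them. The microRNA gene Mir196b, between Hoxa9 and Hoxa10, did not, with 0 counts in both batches. Hotairm1, a long noncoding RNA at the 3′ end of the cluster, was at 4.87 ± 0.753 CPM in batch 2 and 0.0580 ± 0.0556 CPM in batch 1 (SD, n = 6 each), a ratio of 84.5 with a counting interval of 36.0 to 262. The antisense genes Hoxaas2 and Hoxaas3 had 256 and 253 counts in batch 2, and 3 and 0 counts in batch 1. Gm15050 and 5730596B20Rik, named after their values were seen, lie between Hoxa3 and Hoxa4 in the annotated order and had 308 and 233 counts in batch 2 against 1 and 0 in batch 1. The spans of Hoxa3, Hoxa4, Hoxa5, Hoxa6 and Hoxaas3 overlap, and with the strand setting of the counting not given in the sources used here, reads of a gene and of its antisense or overlapping partner cannot be told apart.

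Beyond Hoxa13 at the 5′ end, counts were low up to Hibadh. Hottip, a noncoding RNA beside Hoxa13, had 6 counts in batch 2 and 0 in batch 1, Evx1, a homeobox gene beyond it, had 5 and 1, and Hoxa11os, antisense to Hoxa11, had 0 in both. Evx1os and Gm8129, named after their values were seen, lie on either side of Evx1. Evx1os had 10 counts in batch 2, spread over all 6 libraries, and 0 in batch 1. Gm8129 was at 2.49 ± 0.306 CPM in batch 2 and 0.870 ± 0.334 CPM in batch 1, with each batch 2 value above each batch 1 value. Hibadh, the next flanking gene with high counts and an enzyme of valine breakdown, was at 81.6 ± 9.07 CPM in batch 2 and 79.0 ± 8.02 CPM in batch 1 (SD, n = 6 each). On the 3′ side, Halr1, a noncoding RNA between Skap2 and the cluster, was at 24.4 ± 3.98 CPM in batch 2 and 1.97 ± 1.24 CPM in batch 1, and Skap2, which encodes an adaptor protein, at 149.3 ± 11.1 and 60.4 ± 9.17 CPM. The ratios, pooled over libraries, were 11.2 for Halr1, 2.39 for Skap2, 2.98 for Gm8129 and 1.05 for Hibadh.

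**Figure D2:**
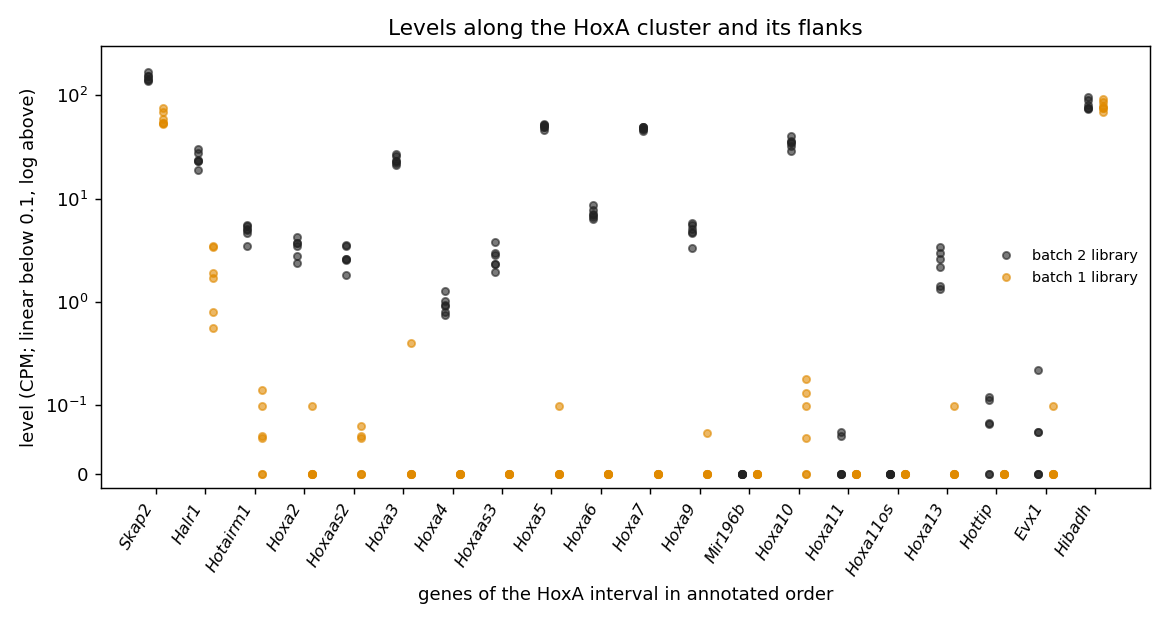
Level in CPM (vertical axis, linear below 0.1 and logarithmic above) of genes along the HoxA interval in annotated order (horizontal axis), with 1 point per library, batch 2 to the left of batch 1 for each gene. From Hotairm1 to Hoxa13 the batch 2 points lie above all batch 1 points except at Mir196b, Hoxa11 and Hoxa11os, Skap2 and Halr1 differ less, and Hibadh overlaps between batches.

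MicroRNA genes within the clusters were at or near 0 in these total RNA libraries. Mir10a, Mir10b, Mir196a-1 and Mir196b had 0 counts in all 12 libraries, Mir196a-2 had 1 in batch 1 and Mir615 had 1 in batch 2. Library preparations for total RNA are not made to catch mature microRNAs, so these counts describe the hairpin genes only. The mature sequences are shown because Mir196b lies within the detected part of cluster A and shares its seed, the bases that pair with targets, with its copies in clusters B and C. The seed (bases 2 to 8) is in capitals.
miR-10a-5p: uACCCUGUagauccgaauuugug
miR-10b-5p: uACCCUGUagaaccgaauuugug
miR-196a-5p: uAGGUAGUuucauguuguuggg
miR-196b-5p: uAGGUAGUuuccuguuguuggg
The miR-10 pair shares the seed ACCCUGU and the miR-196 pair shares AGGUAGU, as RefSeq lists them.

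The comparison of gRNA with control cells asks whether the TAPIR treatment moved the Hox genes, and it was not part of the choice of the family. In batch 2, where the 9 HoxA genes were measurable, 0 of 9 passed edgeR's quasi-likelihood test at a Benjamini-Hochberg adjusted p of 0.05, against 0% of all 15647 genes tested. At an unadjusted p under 0.05 there were 0 of the 9 and 116 of all genes, and DESeq2 and limma-voom also called 0 of the 9. The 116 are far fewer than a share of 0.05 of the genes tested, so these p-values ran conservative. Without both replicates 3 of batch 2 the count was 606 of 15982 genes, again with 0 of the 9. Over both batches 0 of 9 passed, against 0% of 18279 genes (243 at an unadjusted p under 0.05). Batch 1 held only 0 to 6 counts of each of the 9, so for them this fit nearly repeats the batch 2 comparison and is no second test. No Hox gene passed the filter in batch 1, so no test of the treatment was made there. The summed Hox level in batch 2 was 173 ± 3.73 CPM in gRNA and 180 ± 5.14 CPM in control libraries (SD, n = 3 each).

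**Figure D3:**
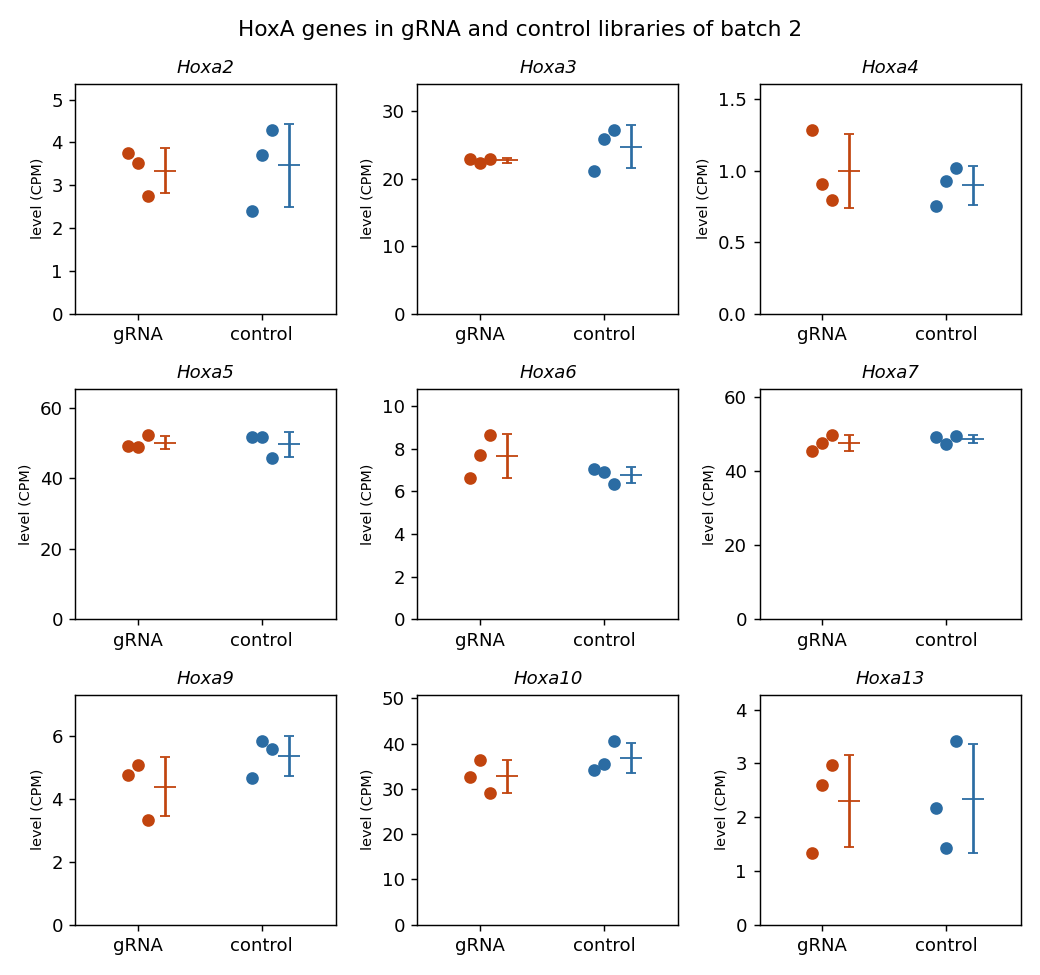
Level in CPM (vertical axes, from 0) of the 9 HoxA genes that passed the low-count filter in the gRNA and control libraries of batch 2, with 1 point per library and the mean ± SD (n = 3) beside the points. The gRNA and control points overlap for all 9 genes.

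Among the 9 genes, 3 had a fold change above 0 and 6 below, with a median log2 fold change of −0.02, against 0.0015 over all genes tested in batch 2. The most negative value was that of Hoxa9, at 4.39 ± 0.932 CPM in gRNA and 5.38 ± 0.635 CPM in control libraries (SD, n = 3 each), or −0.28 on the log2 scale (SE 0.24, 95% interval −0.85 to 0.29). The most positive was that of Hoxa6, at 7.64 ± 1.02 CPM in gRNA and 6.77 ± 0.382 CPM in control libraries, or 0.18 on the log2 scale (SE 0.19, interval −0.27 to 0.62). Hoxa10 was at −0.16 (SE 0.14, interval −0.48 to 0.16) and Hoxa3 at −0.12 (SE 0.15, interval −0.45 to 0.22). The genes with most counts had the tightest estimates: Hoxa5 was at 0.02 (SE 0.11, interval −0.23 to 0.27) and Hoxa7 at −0.02 (SE 0.10, interval −0.25 to 0.20).

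The low genes were measured less well. On the same scale Hoxa4 was at 0.17 (SE 0.32, interval −0.57 to 0.91), Hoxa13 at −0.01 (SE 0.41, interval −0.96 to 0.94) and Hoxa2 at −0.04 (SE 0.28, interval −0.70 to 0.61). The edgeR adjusted p-values of the 9 genes were all 0.998 to 0.999. The 95% intervals left out a 2-fold change in either direction for 9 of 9 genes and a 1.5-fold change for 4, so smaller differences could not be resolved with these libraries. The direction of Hoxa2, Hoxa4, Hoxa5, Hoxa7 and Hoxa13 turned with 1 library left out, and that of Hoxa2, Hoxa5 and Hoxa13 also without both replicates 3 of batch 2.

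**Figure D4:**
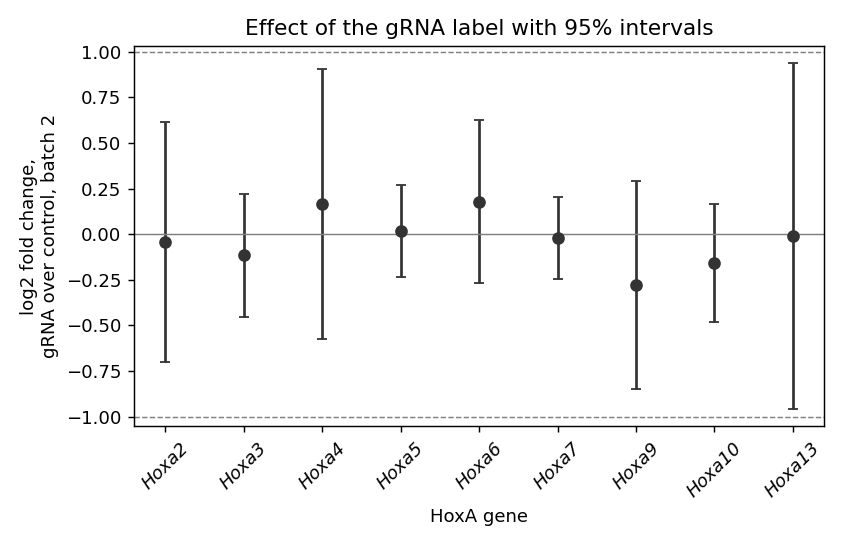
Log2 fold change, gRNA over control in batch 2 (vertical axis), of the 9 HoxA genes (horizontal axis), with dashed lines at a 2-fold change either way. Bars are 95% intervals derived from edgeR's fold change and F statistic. All 9 intervals cover 0 and lie within the dashed lines, and the widest is that of Hoxa13, from −0.96 to 0.94.

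Whether the treatment acted differently in the 2 batches was tested as an interaction, and 0 of 9 Hox genes passed, against 0% of 18279 genes (236 at an unadjusted p under 0.05). For Hoxa4, Hoxa6 and Hoxa7 this test is void, since batch 1 held no reads, and for the other 6 genes it rests on 1 to 6 batch 1 counts.

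Genes that act with or upstream of Hox genes were followed in the same libraries as context, by lists taken up with results of these data known. In every list, 0 genes passed the edgeR test for gRNA against control, as did 0 of all 18279 genes. At an unadjusted edgeR p under 0.05 there were 2 genes in all lists, beside 243 of all 18279 genes, so nothing is read from the 2. They were Cyp26b1, which breaks down retinoic acid, with a log2 fold change over both batches of −1.25 (SE 0.47), and Kdm6b, a histone demethylase, at −0.23 (SE 0.11). Between batches many genes differed in both directions, and the median over all genes was −0.03 on the log2 scale. The counts per list below are of genes past an edgeR adjusted p of 0.05, batch 2 over batch 1, and stand beside 28.4% of all 18279 genes called higher and 33.4% called lower. The lists were not tested as lists, and nothing particular to a list is read from its count.

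TALE homeodomain proteins are cofactors that bind DNA together with Hox proteins. Of 9 TALE homeodomain genes tested, 2 were higher and 3 lower in batch 2, with a median of −0.03. Meis2 was at 57.8 ± 10.96 CPM in batch 2 and 174.6 ± 10.9 CPM in batch 1, and Meis1 at 37.6 ± 6.84 and 86.0 ± 5.74 CPM (SD, n = 6 each). Pbx2 was slightly higher, at 70.9 ± 3.75 CPM in batch 2 and 55.0 ± 2.78 CPM in batch 1.

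Of the caudal patterning genes, 4 of 10 could be tested, with 1 higher and 2 lower in batch 2 and a median of −0.19. Fgf8, a signal of the tail end and of the midbrain-hindbrain border, was at 2.58 ± 0.832 CPM in batch 2 and 0.428 ± 0.128 CPM in batch 1. T, the mesoderm factor brachyury, was at 1.06 ± 0.351 and 5.06 ± 0.954 CPM. In the retinoic acid pathway, whose signal switches on 3′ Hox genes in the hindbrain, 3 of 11 tested genes were higher and 4 lower in batch 2, with a median of 0.11. Rarb, a receptor and known target of retinoic acid, was at 2.17 ± 0.509 CPM in batch 2 and 4.42 ± 1.04 CPM in batch 1.

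The next lists hold regional factors of the brain and spinal cord. Among hindbrain segmentation factors, 4 of 8 tested were higher and 2 lower in batch 2, with a median of 0.05. Irx3 was at 17.5 ± 3.70 CPM in batch 2 and 2.06 ± 0.920 CPM in batch 1, and Gbx2, which sets the anterior border of the hindbrain, at 1.51 ± 0.699 and 14.5 ± 6.87 CPM. Among forebrain and midbrain factors, 4 of 11 tested were higher and 6 lower, with a median of −0.71, and Emx2, a factor of the cerebral cortex, was at 21.5 ± 1.71 CPM in batch 2 and 60.5 ± 2.51 CPM in batch 1. Dlx1, a factor of the ventral forebrain, was higher in batch 2, at 5.14 ± 0.842 and 0.647 ± 0.406 CPM.

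Among spinal cord domain factors, 2 of 8 tested were higher and 5 lower in batch 2, with a median of −1.84. Pax7, a factor of dorsal progenitors, was at 2.02 ± 0.450 CPM in batch 2 and 0.114 ± 0.123 CPM in batch 1. Nkx2-2, a factor of the ventral spinal cord and brain, had 5 counts in batch 2 and 1899 in batch 1, and Nkx6-2 had 0 and 239. Gsx1, which the lists of forebrain and of spinal cord factors share, had 1 and 181. In batch 2, the detected HoxA genes stood beside higher and lower regional factors in each of these 3 lists.

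Polycomb and Trithorax proteins keep Hox genes silent or active. Of the 23 genes tested, 12 were higher and 1 lower, with a median of 0.18. Pcgf2, a Polycomb complex subunit, was at 31.1 ± 14.97 CPM in batch 2 and 8.08 ± 1.53 CPM in batch 1, with its highest values, 55.8 and 42.6 CPM, in gRNA and control replicates 3 of batch 2. Cbx2, which binds the repressive histone mark, was at 77.2 ± 5.85 and 45.1 ± 5.23 CPM, and Ring1 at 46.4 ± 7.83 and 30.5 ± 2.85 CPM. Of 14 tested genes of the list inside or beside the clusters, 8 were higher and 2 lower, with a median of 0.36, and Halr1, Hotairm1, Hoxaas2 and Hoxaas3, described above, had the largest fitted differences among those of the list that averaged at least 1 CPM in either batch. Gm15050 and 5730596B20Rik were not in that list.

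**Figure D5:**
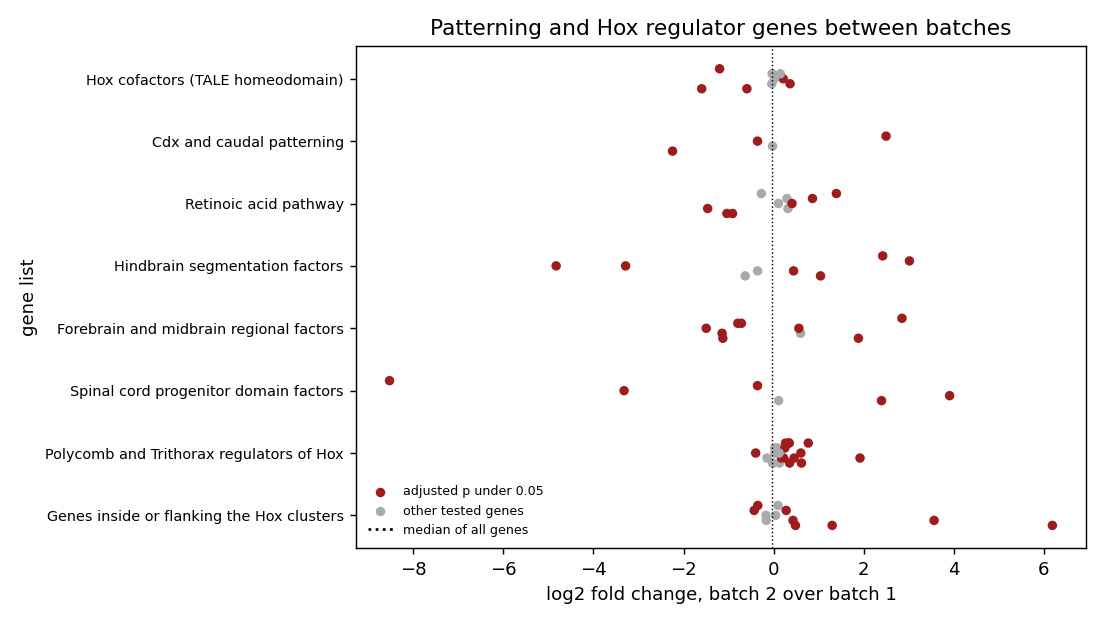
Log2 fold change, batch 2 over batch 1 (horizontal axis), of the tested genes in 8 lists (down the page), with genes past an edgeR adjusted p of 0.05 in red, others in grey and the median of all genes as a dotted line. Genes with 3 or fewer counts in either batch are left out of the plot, and each list has at least 1 red gene on either side of the line.

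Markers of other cell types moved with the batches as well, and their part in the Hox levels was not tested. The summed mesenchyme and fibroblast list was at 99.6 to 137 CPM in batch 2 and 318 to 406 CPM in batch 1, with most of the batch 1 sum from Prrx1, at 44.2 ± 8.56 CPM in batch 2 and 303 ± 40.2 CPM in batch 1. The list had 4 of 12 genes at 1 CPM or more in each batch and Col3a1 and Twist1 at 0 in batch 2. Thy1 also ran with the sum, at 0.0846 ± 0.0976 CPM in batch 2 and 54.5 ± 24.7 CPM in batch 1. Other genes of the list ran opposite to the sum: Tbx15 was at 19.6 ± 2.48 CPM in batch 2 and 0.326 ± 0.205 CPM in batch 1, and Tbx18 at 49.6 ± 6.79 CPM in batch 2 and 2.14 ± 0.525 CPM in batch 1. The neural crest list summed to 116 to 237 CPM in batch 2 and 72.0 to 113 CPM in batch 1, mostly from Ets1, with Foxd3 and Twist1 at 0 in batch 2. The genes of this list that averaged at least 1 CPM were Ets1 and Tfap2a in batch 2 and Ets1 and Ngfr in batch 1, and Tfap2a was at 18.4 ± 1.92 CPM in batch 2 and 0.0823 ± 0.0700 CPM in batch 1. The astrocyte list was at 635 to 944 CPM in batch 2 and 943 to 1668 CPM in batch 1. This sum mixed genes that ran opposite ways. Aldh1l1 was at 16.2 ± 11.7 CPM in batch 2 and 123 ± 42.1 CPM in batch 1. Slc1a2, Gja1 and Aqp4 were likewise lower in every batch 2 library. S100b was higher in every batch 2 library, at 30.2 ± 12.3 CPM in batch 2 and 9.37 ± 2.28 CPM in batch 1. The values of Slc1a3, Aldoc and Gfap overlapped between batches. In each batch, 8 of 8 genes averaged at least 1 CPM. For Gfap that batch 2 average rests on gRNA and control replicates 3, at 40.8 and 31.3 CPM, with the other 4 libraries at 0.391 to 1.35 CPM, and for Aqp4 the highest batch 2 value was 9.83 CPM in control replicate 3.

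The ranges of the summed neuron, endothelial, microglial and pluripotency lists overlapped between batches, and those of the oligodendrocyte lineage and mesoderm lists did not. The neuron list was at 633 to 784 CPM in batch 2 and 760 to 1047 CPM in batch 1, with 4 and 8 of 10 genes at 1 CPM or more. Map2 made up most of these sums, at 660 ± 52.4 and 720 ± 117 CPM, and hid differences in other genes. Elavl4 was at 6.42 ± 1.87 CPM in batch 2 and 62.8 ± 5.37 CPM in batch 1. Elavl3, Syt1, Rbfox3, Snap25 and Dcx were likewise lower in every batch 2 library. Tubb3 ran the other way, at 17.2 ± 4.81 and 3.29 ± 0.861 CPM. The oligodendrocyte lineage list was at 179 to 335 CPM in batch 2 and 77.5 to 121 CPM in batch 1, mostly from Cspg4. Mesoderm derivatives, which include trunk tissues, were at 4.06 to 6.91 CPM in batch 2 and 1.19 to 2.69 CPM in batch 1. Most of the batch 2 sum was Pax9, at 5.29 ± 1.05 CPM in batch 2 and 0.226 ± 0.237 CPM in batch 1. The other genes of this list averaged under 1 CPM in each batch. Of these, Myod1, Tcf15 and Meox2 were lower in batch 2 and Meox1 was higher. Myog and Pax1 averaged 0.0289 and 0.0665 CPM in batch 2, beside a floor of 0.0328 CPM, and 0 in batch 1, so no difference is read for them. Myf5 was at 0 in both batches. Meox2 was also at 0 in batch 2. Pluripotency markers were at 23.3 to 41.4 CPM in batch 2 and 20.9 to 36.4 CPM in batch 1, with Pou5f1, Zfp42 and Dppa5a at 0 in batch 2. Endothelial markers were at 3.95 to 7.65 CPM in batch 2 and 5.57 to 10.4 CPM in batch 1, and microglial markers at 0.218 to 0.725 and 0.714 to 2.15 CPM. In bulk RNA, a change in the share of cells of a type and a change in RNA per cell cannot be told apart.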

How the data were processed

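RNA-seq of 12 libraries was analysed. Per the labels' protocols, total RNA was depleted of ribosomal RNA and made into stranded libraries. Per the submitters' processing notes, Trimmomatic, STAR, SAMtools and HTSeq were used on GRCm39, with versions and the strand setting not given. What the authors deposited are whole-number counts per Ensembl gene, with no normalization. The 5 summary lines were left out. Symbols matched 51880 of 57132 identifiers (90.8%), and 1 further gene of the family is not analysed here.

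The tests used edgeR 4.0.16 under R 4.3.3, with filterByExpr with a minimum count of 10, TMM scaling, the quasi-likelihood test and Benjamini-Hochberg adjustment over all genes at 0.05. Batch was a term over both batches, and batches were also fitted alone and with an interaction. Fits were tested on simulated data. The members, lists and named genes were chosen with earlier results of these data known. Named genes were those averaging 1 CPM in either batch and, per list, up to 4 by the smallest p for gRNA and up to 4 by the largest batch difference; others are described as chosen after their values were seen. The text names some of the genes this rule took, and the others are not reported here. Alternatives were DESeq2 1.42.0, limma-voom (limma 3.58.1), other size factors, other low-count filters, no batch term and leaving out each library; leaving out 2 libraries that stand apart was added after seeing the data. Fold ratios between batches are pooled counts over TMM-scaled sizes. Annotated gene order, promoters and microRNAs come from RefSeq (GRCm38.p6). The ribosome footprint table names libraries in a way that matches no label and gives transcripts without gene names, so footprints were not used here. Figures used Python 3.11.15 and matplotlib 3.10.9.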

Additional observations from a re-analysis of the deposited data

How the results depend on the processing

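The number of Hox genes called for gRNA against control was 0 in batch 2 and over both batches under every alternative run, that is other size factors, low-count filters, DESeq2, limma-voom, no batch term (over both batches) and leaving out each library. Of all genes, these runs also called 0, except 1 of 37217 over both batches without the low-count filter. A 0 for the Hox genes therefore does not speak of stability. For these genes the fit over both batches rests almost only on batch 2 reads. In batch 1 no Hox gene could be tested, except 18 without the low-count filter, of which 0 were called, and the interaction rests on too few batch 1 reads for its 0 to speak of stability. Hox genes at the detection level in every batch 2 library were 9 at 0.5 CPM, 8 at 1 CPM and 7 at 2 CPM. The summed Hox level was 174 to 178 CPM in batch 2 with 1 library left out; in batch 1 it was 0.166 CPM without gRNA replicate 1, against 0.421 CPM with all libraries. Fold changes of single genes near 0 turned: without both replicates 3 of batch 2 the log2 fold change, gRNA over control, was 0.22 for Hoxa2, −0.084 for Hoxa5 and 0.14 for Hoxa13. Leaving out 1 library gave −0.24 to 0.12 for Hoxa2, −0.067 to 0.29 for Hoxa4, −0.055 to 0.063 for Hoxa5, −0.060 to 0.0064 for Hoxa7 and −0.27 to 0.35 for Hoxa13; the cause was not tested. No paired analysis was possible because the RNA-seq labels carry no replicate numbers (those used here follow the order of the sample records and only name libraries), and the numbered footprint libraries could not be matched to the table. Alternatives for footprints and for levels per length were not run, with no gene names for transcripts and no gene lengths in the files. Counts were low for Hoxa4, Hoxa13 and Hoxd4.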
